A study of Mus musculus with 14 samples.

Results

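The cells described here are D2A1 mouse breast cancer cells that had grown beside Hsf1 null mouse embryonic fibroblasts (MEFs), set against the same cells grown by themselves. The arrays were chosen by their titles, as tumor cells from co-culture with null fibroblasts (replicates A and B) and tumor cells alone (A and B), which gave 4 of the 14 arrays of the series. Tumor cells and MEFs were kept for 72 hours in DMEM with 10% FCS and then sorted apart by FACS, and RNA from each sort (0.5 ug) was labelled with Cy3 for a 1-colour Agilent array. The MEFs placed beside these tumor cells had been treated with 10 ug/ml mitomycin C for 2 hours, an agent that stops cell division, and this held for the WT MEF partner too, while the MEFs that were themselves profiled had no such treatment. The labels name no change to Hsf1 in the tumor cells themselves. D2A1 is 1 cell line, the origin of the null MEFs is not given in the sources used here, and nothing states that A and B were separate cultures, so p-values measure the spread between these arrays only.

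HSF1 is the transcription factor that switches on chaperone genes when proteins unfold. Interferons are secreted antiviral proteins: after binding their receptors they activate JAK kinases, which phosphorylate STAT proteins, and these join IRF9 to bind a DNA element called the interferon-stimulated response element (ISRE). The genes switched on in this way include sensors of foreign nucleic acid, direct antiviral effectors, the ISG15 modifier, and the MHC class I machinery that shows peptides to T cells.

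Each log2 signal below is given for array A and then array B, and each difference is a log2 difference ± SE from 1 limma fit to all 14 arrays, with n = 2 arrays on each side. All 7 A arrays lay on 1 slide and all 7 B arrays on another. On slide A, scanner output could not be used for either group: 36.8% of spots with null MEFs and 32.1% alone carried outlier marks, so the deposited log2 table was used. In that table the lowest correlation of any array with another was 0.935. Of the spots on array B, 53.1% alone and 58.7% with null MEFs were well above background. The unusable output of slide A gave 38.5% and 41.0%. Krt18, a simple epithelial keratin, was high in the tumor cells (16.47 and 16.54 alone, 16.50 and 16.47 with null MEFs), and Krt8 was above background (8.44 and 8.44 alone), whereas Cdh1, the epithelial cadherin, was not above background in either group.

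MEF-typical transcripts were higher in the tumor cells sorted from co-culture, and with null MEFs more so on array B. Over 259 genes at least 32-fold higher in co-cultured null MEFs than in tumor cells alone, the median rise over tumor cells alone was 9.73% of that of the null MEFs on array A and 24.3% on array B, called the MEF share here. The quartiles over these genes were 5.71% and 17.0% on array A and 15.3% and 39.8% on array B. A single share per array therefore fits single genes only roughly. Whether this rise is RNA carried over from MEFs or made by the tumor cells was not tested. The same share of WT MEFs in the WT-partner tumor cells was 7.46% and 7.40%. Both shares use levels of MEFs profiled from co-culture, as sorted and without mitomycin C, not of the treated partners. Signals after subtraction of the share were held at or above a floor. This was the lowest log2 value of any gene in the deposited table. A difference at the floor is set by it and by the level alone, and is not a measured fall. Of 22 fibroblast markers, 10 were higher with null MEFs and 0 lower, and their summed log2 signal was 19.06 and 18.98 alone, 19.15 and 19.47 with null MEFs, 19.60 and 19.64 with WT MEFs, and 19.58 and 19.72 in null MEFs from co-culture. Lum and Thy1 were not above background with null MEFs, nor did Pdgfra (0.22 ± 0.11) or Pdgfrb (-0.27 ± 0.16) pass. Pdgfrb passed as lower after subtraction of the MEF share (-0.79, limma adjusted p = 0.00403; with rescaling -0.52, adjusted p = 0.0459). In bulk RNA, more cells of a type and more RNA per cell cannot be told apart. Of 18 macrophage and leukocyte markers 3 were higher and 0 lower, with summed log2 signals of 13.48 and 13.52 alone and 13.81 and 13.77 with null MEFs, and Aif1 rose most among them (at least 5.52-fold). Ptprc, the pan-leukocyte marker CD45, was 5.99 and 6.20 alone and 5.94 and 6.19 with null MEFs.

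Of 25896 genes tested, 2612 rose (10.1%) and 2487 fell (9.6%) at limma adjusted p under 0.05. All 5099 (19.7%) had the same sign on both slides, but passing favours this, so it is no further support. The share of all genes tested with the same sign on both slides is not given. Passing also favours groups that do not overlap, so where this is said of a gene below it is no further support. The share of all genes without overlap was not counted. The changes were unequal in size: 1357 genes (5.24%) rose at least 2-fold and 199 (0.768%) fell at least 2-fold. The median of all genes was -0.09. Among genes not at least 2-fold higher in co-cultured null MEFs than in tumor cells alone, 945 rose and 2478 fell (27.6% higher). With only the 4 arrays compared, 854 of all genes tested rose and 172 fell, and with the 6 tumor cell arrays 1541 and 703. Fits with fewer arrays passed fewer of all genes tested, so calls lost in a list below are to be read beside this. Without tumor cells with null MEFs B the number that passed was 2836. On the 12 sound scanner files 74.1% of the genes that passed were higher, against 51.2% here, and after subtraction of the MEF share with rescaling 40.1% were.

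Genes of the interferon pathway rose together. Across 7 lists of interferon-pathway and MHC class I genes, 128 of 159 members rose and 1 fell, with a median difference of 2.70. The levels reached were often above those of the profiled null MEFs. Of the 128, 100 were higher in the tumor cells with null MEFs than in null MEFs either alone or from co-culture. The same held for 36.7% of all 2612 genes that rose. Those MEFs had no mitomycin C, and levels in the treated partners of these tumor cells were not measured. This applies to every null MEF value below. After subtraction of the MEF share with rescaling, with 1 share per array for all genes, 124 of the 128 still passed. The median difference of the 128 was 2.82 on slide A and 3.36 on slide B.

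**Figure D1:**
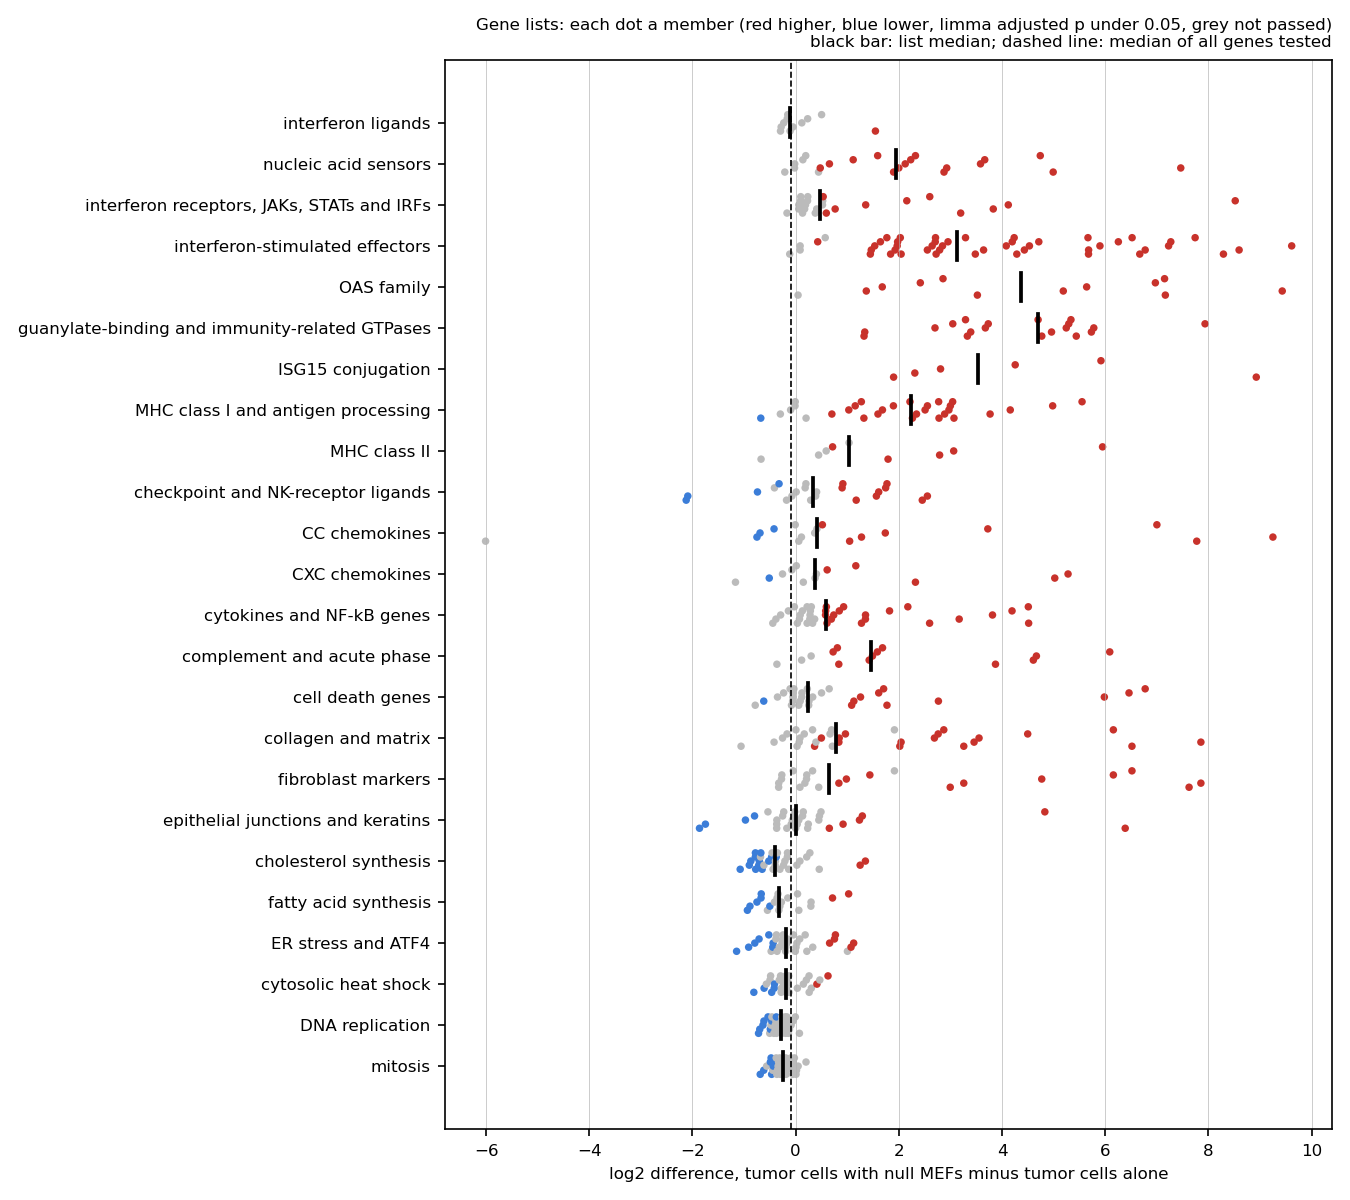
Differences of single genes by list, tumor cells with null MEFs minus tumor cells alone (log2), with 1 dot per gene, red for higher and blue for lower at limma adjusted p under 0.05. Black bars are list medians and the dashed line is the median of all genes (-0.09). The OAS and guanylate-binding lists have medians of 4.36 and 4.70, while the cholesterol list has -0.40. The lowest dot is Ccl3, which was high on 1 tumor-alone array only.

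Of 11 interferon ligand genes, 1 rose and 0 fell, and the list median was -0.11. The gene that passed was Ifnb1, interferon beta. It had 4.85 and 6.08 alone and 6.64 and 7.38 with null MEFs, at least 2.92-fold higher, since it was not above background in tumor cells alone. The log2 difference from those dim values was 1.55 ± 0.34 (limma adjusted p = 0.00975). Both values with null MEFs lay above both alone, but the call was lost without tumor cells with null MEFs B (1.18, adjusted p = 0.0835), and the difference was 0.93 without tumor cells alone A. The adjusted p ran from 0.000549 to 0.105 over the alternatives. In null MEFs its mean was 5.73 alone and 6.19 from co-culture.

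Sensors of nucleic acid rose in 16 of 22 cases and none fell, with a median of 1.95. Zbp1, a receptor for left-handed nucleic acid that can trigger necroptosis, had 6.99 and 6.48 alone and 14.08 and 14.32 with null MEFs. The difference was 7.47 ± 0.16 (177-fold, limma adjusted p = 1.5e-09). The tumor cells stood far above the profiled null MEFs, which had means of 7.74 alone and 10.39 from co-culture. Ddx58, which encodes the RNA helicase RIG-I, went from 8.87 and 8.74 to 12.25 and 12.52 (3.58 ± 0.12, 12-fold). Its relatives Dhx58 (4.74 ± 0.19) and Ifih1, encoding MDA5 (at least 12.4-fold), rose too, as did the endosomal receptor for double-stranded RNA Tlr3 (at least 4.36-fold). Mnda, of the DNA-binding Ifi200 family, went from 4.86 and 5.15 to 9.77 and 10.23, at least 31.8-fold higher, since it was not above background alone, with null MEF means of 5.22 and 6.58.

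Among receptors, JAKs, STATs and IRFs, 10 of 24 rose and 0 fell (median 0.47), and 7 rose without tumor cells with null MEFs B. Stat2, which is phosphorylated by the JAKs, had 9.91 and 9.88 alone and 13.77 and 14.26 with null MEFs (4.12 ± 0.15, 17.4-fold, adjusted p = 3e-08). Irf9, its DNA-binding partner, went from 10.66 and 10.94 to 14.53 and 14.73 (3.83 ± 0.12). The groups did not overlap for either gene. Irf7, the factor that amplifies interferon production, stood at 5.45 and 6.24 alone, 8.66 and 8.63 with WT MEFs and 14.10 and 14.64 with null MEFs. The receptor chain Ifnar1 (-0.17 ± 0.12, adjusted p = 0.365), the kinase Jak1 (0.23 ± 0.14, adjusted p = 0.275) and Irf3 (0.17 ± 0.19, adjusted p = 0.573) did not pass. The interferon lambda receptor gene Il28ra rose at least 9.19-fold. Its mean in null MEFs from co-culture was 11.42, against 7.96 and 8.82 in the sorted tumor cells. After subtraction of the MEF share it lay at the floor (-0.87).

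Of 48 antiviral effectors 44 rose and 0 fell, with a median of 3.12. Rsad2 (viperin, which makes a chain-terminating nucleotide) had 5.26 and 4.63 alone and 10.64 and 11.76 with null MEFs, at least 71.2-fold higher. The dynamin-like GTPases Mx1 and Mx2 rose at least 155-fold and at least 387-fold. Bst2 (tetherin, which holds budding virions at the membrane) went from 13.17 and 13.13 to 17.93 and 17.79 (4.71 ± 0.14, 26.2-fold), and its null MEF means were 15.42 and 16.53. Ly6e followed the same order, with 11.58 and 11.64 alone, 16.12 and 16.16 with null MEFs and 14.42 in null MEFs from co-culture. Among the smaller changes was Ifit2 (1.84 ± 0.16).

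Genes of the OAS family, some of whose members make the second messenger that activates RNase L, rose in 11 of 12 cases with a median of 4.36. Oas2 had 5.99 and 5.78 alone, 9.12 and 8.70 with WT MEFs and 15.17 and 15.47 with null MEFs, at least 691-fold higher than alone. Oas3 (5.87 and 5.70 to 11.32 and 11.53) rose at least 49.9-fold, and its null MEF means of 7.01 and 8.90 were lower. Oasl1 rose by 5.19 ± 0.13. The member that did not pass was Oas1d (0.05 on the log2 scale, adjusted p = 0.907). The Oas1 genes are near-identical copies whose probes may cross-hybridise, and the 2 probes of Oas1g differed in sign on slide B (-0.51 and 4.37).

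The guanylate-binding proteins and immunity-related GTPases, which attack the vacuoles of intracellular parasites, rose in 19 of 19 cases (median 4.70). Gbp2 went from 8.89 and 8.84 to 13.75 and 14.46 (5.25 ± 0.19, 37.9-fold), and Gbp4 from 7.11 and 7.23 to 11.57 and 12.31, where null MEFs had means of 8.31 and 9.91. Gbp3 had 7.49 and 7.60 alone, 10.87 and 10.89 with WT MEFs and 15.25 and 15.71 with null MEFs. Igtp rose by 4.96 ± 0.17, Irgm1 by 3.68 ± 0.14, and Irgm2 by 5.78 ± 0.19, and Tgtp1 rose at least 8.26-fold. Probes of these families may share signal between copies too.

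Of the 6 genes of ISG15 conjugation, 6 rose (median 3.53). Isg15, the ubiquitin-like modifier, was already bright alone (12.36 and 12.07) and reached 16.31 and 16.64 with null MEFs (4.26 ± 0.14, 19.1-fold). Its activating enzyme Uba7 rose by 5.92 ± 0.17, its conjugating enzyme Ube2l6 by 2.81 ± 0.12, and Usp18, the protease that removes it and dampens receptor signalling, at least 487-fold. By contrast, of 15 feedback inhibitors 5 rose and 1 fell, and 1 rose and 0 fell without tumor cells with null MEFs B, while 2 rose and 0 fell without either tumor-alone array. The member that rose most was Usp18, which is also in the ISG15 list.

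**Figure D2:**
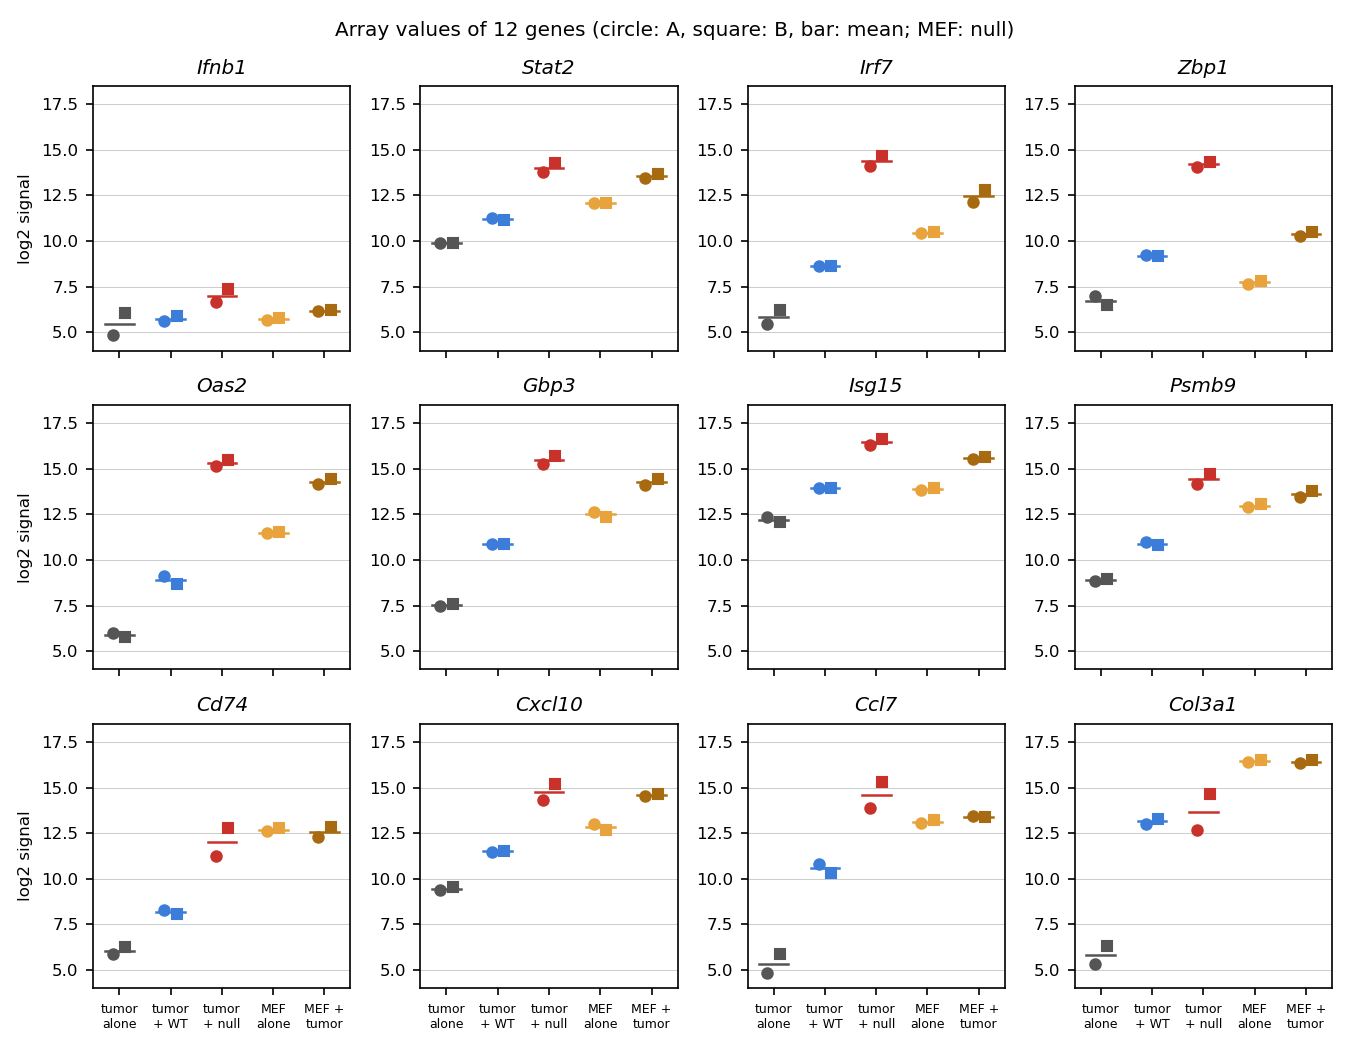
Log2 signal of 12 genes on single arrays (circle A, square B, bar the mean) in tumor cells (by themselves, beside WT MEFs, beside null MEFs) and in null MEFs (alone, from co-culture). Zbp1, Irf7 and Oas2 lie higher in tumor cells with null MEFs than in the null MEFs, whereas Col3a1 (12.69 and 14.63 with null MEFs) lies below its null MEF mean of 16.43.

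The ISRE core was counted in promoters by size of change and by list. The motif searched was GAAA, any 2 bases and GAAA again, on both strands within 250 bases before the transcription start, overlaps allowed, in RefSeq promoters of build GRCm38.p6. It was present in 936 of 27025 promoters (3.5%). Among genes tested here it was in 401 of 12942 (3.1%), in 104 of 1656 genes that rose (6.3%) and in 25 of 1177 that fell (2.1%). For rises of at least 2 on the log2 scale the count was 50 of 358, and for rises of at least 4 it was 29 of 104 (27.9%). By list, it was in 7 of 10 interferon ligand promoters (70.0%), a list of which 1 gene rose, and in 9 of 10 guanylate-binding and immunity-related GTPase promoters (90.0%), in 4 of 7 OAS promoters (57.1%), in 10 of 36 effector promoters (27.8%) and in 2 of 22 MHC class I promoters (9.1%).

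**Figure D3:**
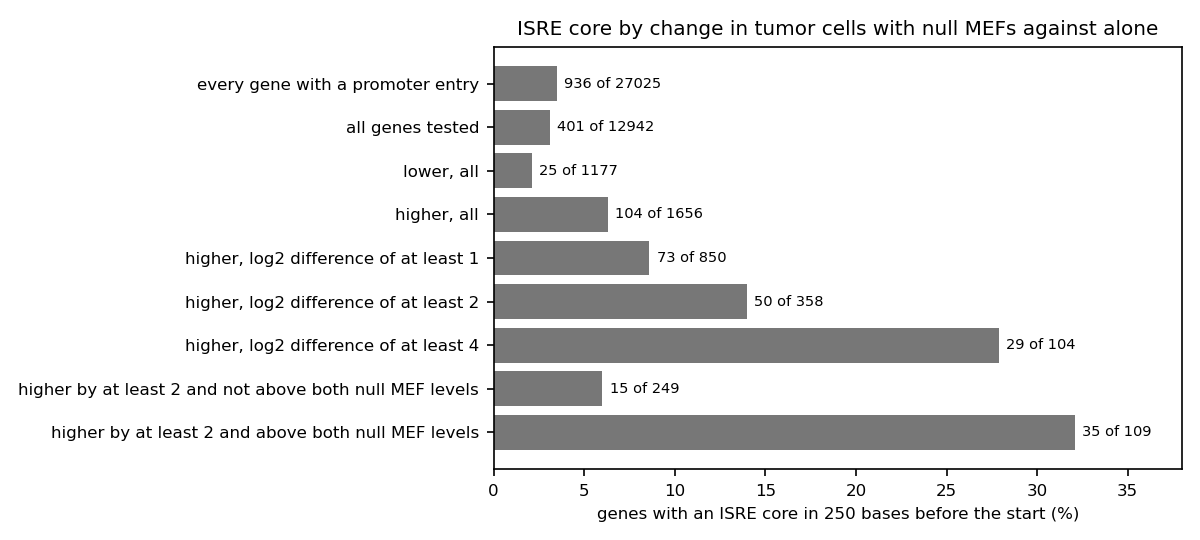
Share of genes with an ISRE core in the 250 bases before the start (x axis, %), by change in tumor cells with null MEFs against alone, with counts beside the bars. The share is 3.1% of all genes tested, 27.9% of those that rose by at least 4 (log2) and 32.1% of those that rose by at least 2 and stood above both null MEF levels.

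These stretches, from 9 of the genes that rose, show where the core lies and how it is repeated. Each is read 5′ to 3′ in the direction of its gene, and capitals mark the core, which begins TTTC where it lies on the other strand. Isg15 holds 3 overlapping copies and Oas1a and Gbp3 hold 2, while the other promoters hold 1. A match is a description of the letters and not evidence of binding.
Isg15, chr4:156200850-156200909, minus strand: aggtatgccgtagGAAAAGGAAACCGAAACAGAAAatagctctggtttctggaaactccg
Oas1a, chr5:120907526-120907564, minus strand: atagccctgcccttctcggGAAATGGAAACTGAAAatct
Gbp3, chr3:142559980-142560039, plus strand: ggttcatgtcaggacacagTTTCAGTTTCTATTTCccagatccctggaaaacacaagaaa
Gbp2, chr3:142620579-142620638, plus strand: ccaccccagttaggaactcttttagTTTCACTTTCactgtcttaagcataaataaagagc
Igtp, chr11:58199497-58199555, plus strand: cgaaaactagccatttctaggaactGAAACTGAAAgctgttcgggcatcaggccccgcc
Stat2, chr10:128270251-128270310, plus strand: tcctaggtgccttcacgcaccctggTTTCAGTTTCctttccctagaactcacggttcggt
Rsad2, chr12:26456538-26456597, minus strand: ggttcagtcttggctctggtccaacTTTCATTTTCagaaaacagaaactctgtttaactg
Cxcl10, chr5:92349068-92349127, minus strand: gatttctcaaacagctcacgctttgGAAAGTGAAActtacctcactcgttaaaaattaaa
B2m, chr2:122147523-122147582, plus strand: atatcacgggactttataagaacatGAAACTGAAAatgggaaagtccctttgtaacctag

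Several of the strongest changes were neighbours in the genome. By probe positions in mm9, 110 of 582 positioned genes that rose by at least 2 (log2) fell into 19 stretches with at least 4 such genes spaced under 300 kb apart. Since rises set the bounds of these stretches, the share of genes that rose in them is partly fixed by the choice. The share still varied: the stretch on chr17:37084871-37618439 had 5 of 22 higher (median -0.07) and the one on chr11:100002392-100556330, with Krt19 and Dhx58, 9 of 24 (median 0.13). The Gbp stretch on chr3:142184779-142300778 held 6 genes tested and all 6 rose, with a median of 5.27. The Oas stretch on chr5:121180343-121348397 had 9 of 10 higher. The Ifi200 stretch on chr1:175451443-175956690 had 19 of 21 higher and 0 lower, among them Ifi203 (9.96 and 9.90 alone, 12.75 and 12.87 with null MEFs). The Ifit stretch on chr19:34663105-34723855 had 4 of 5 higher, and the one holding Parp14, a mono-ADP-ribosyltransferase, on chr16:35832992-35972636 had 5 of 6. Some names in these stretches are copies or transcripts of 1 gene, so their probes are not independent.

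Genes of MHC class I presentation rose in 24 of 30 cases and 1 fell, with a median of 2.24. The immunoproteasome subunit Psmb9 went from 8.82 and 8.93 to 14.17 and 14.69 (5.55 ± 0.18, 46.9-fold), and Psmb8 from 9.30 and 9.17 to 13.86 and 14.58. The peptide transporter subunit Tap1 rose by 4.16 ± 0.20, Tap2 by 2.26 ± 0.14 and the loading factor Tapbp by 2.55 ± 0.17. The heavy chains H2-K1 (14.87 and 14.91 to 17.14 and 17.32) and H2-D1 (14.31 and 14.05 to 16.91 and 17.53) rose 5.07-fold and 8.25-fold, and the non-classical H2-T23 8-fold. B2m, the light chain, went from 15.78 and 15.96 to 17.20 and 17.74 (1.60 ± 0.22, adjusted p = 0.000691). Nlrc5, the transactivator of class I genes, rose by 1.90 ± 0.15. The groups did not overlap for these genes, all of which had passed, and class I heavy chain probes may cross-hybridise. The member that fell was Calr, the ER chaperone calreticulin (-0.68 ± 0.17, adjusted p = 0.0217), and it did not pass without any 1 of the 4 arrays (-0.58 to -0.77, adjusted p 0.0519 to 0.0977).

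Of 9 MHC class II genes, 5 rose and 0 fell. Cd74, the invariant chain, had 5.87 and 6.25 alone, 8.30 and 8.06 with WT MEFs and 11.23 and 12.79 with null MEFs (5.95 ± 0.40, 61.8-fold). The null MEF means of 12.70 and 12.55 were about as high as array B. H2-Ab1 went from 5.14 and 5.10 to 6.97 and 8.85 and was not above background alone. The rise was at least 6.92-fold, and its log2 difference of 2.79 ± 0.43 was 1.85 without tumor cells with null MEFs B.

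Ligands for checkpoint and natural killer cell receptors moved in both directions, with 9 of 22 higher and 4 lower. Cd274, the gene of PD-L1, which restrains T cells, went from 5.87 and 6.25 to 8.27 and 8.75, at least 5.48-fold higher, with null MEF means of 7.57 and 8.25. Lgals9, the gene of galectin-9, rose by 2.55 ± 0.15 and Cd47, the signal that inhibits phagocytosis, by 0.90 ± 0.13. The ligands of the activating receptor NKG2D divided by family. H60a had 14.22 and 14.44 alone, 14.32 and 14.33 with WT MEFs and 12.48 and 11.94 with null MEFs (-2.12 ± 0.18, adjusted p = 1.87e-05). H60b had 12.40 and 12.07 alone, 12.28 and 11.95 with WT MEFs and 10.41 and 9.87 with null MEFs (-2.09 ± 0.19, adjusted p = 2.98e-05). Both null arrays lay below all 4 of the others for each gene, and the null MEF means were lower still (9.57 and 10.90 for H60a, 8.08 and 8.58 for H60b). Ulbp1 fell by 0.74 on the log2 scale (SE 0.10, adjusted p = 0.00058). Raet1c (1.17 ± 0.14) and Raet1e (1.57 ± 0.26; 1.03 without tumor cells with null MEFs B) rose. H60a and H60b are similar in sequence, as are the Raet1 genes, so their probes may share signal. Icosl rose by 1.74 ± 0.32 (at least 3.35-fold), or 1.16 without tumor cells with null MEFs B. Its null MEF means were 10.45 and 10.29, against 6.88 and 8.06 in the sorted tumor cells. After subtraction of the MEF share it lay at the floor (-1.41).

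Ctsw, which encodes cathepsin W and is best known from cytotoxic lymphocytes, fell together with the H60 genes. It had 9.94 and 9.96 alone, 10.08 and 9.91 with WT MEFs and 8.18 and 7.99 with null MEFs (-1.87 ± 0.17, adjusted p = 2.74e-05). The null arrays were again separate from the other 4.

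**Figure D4:**
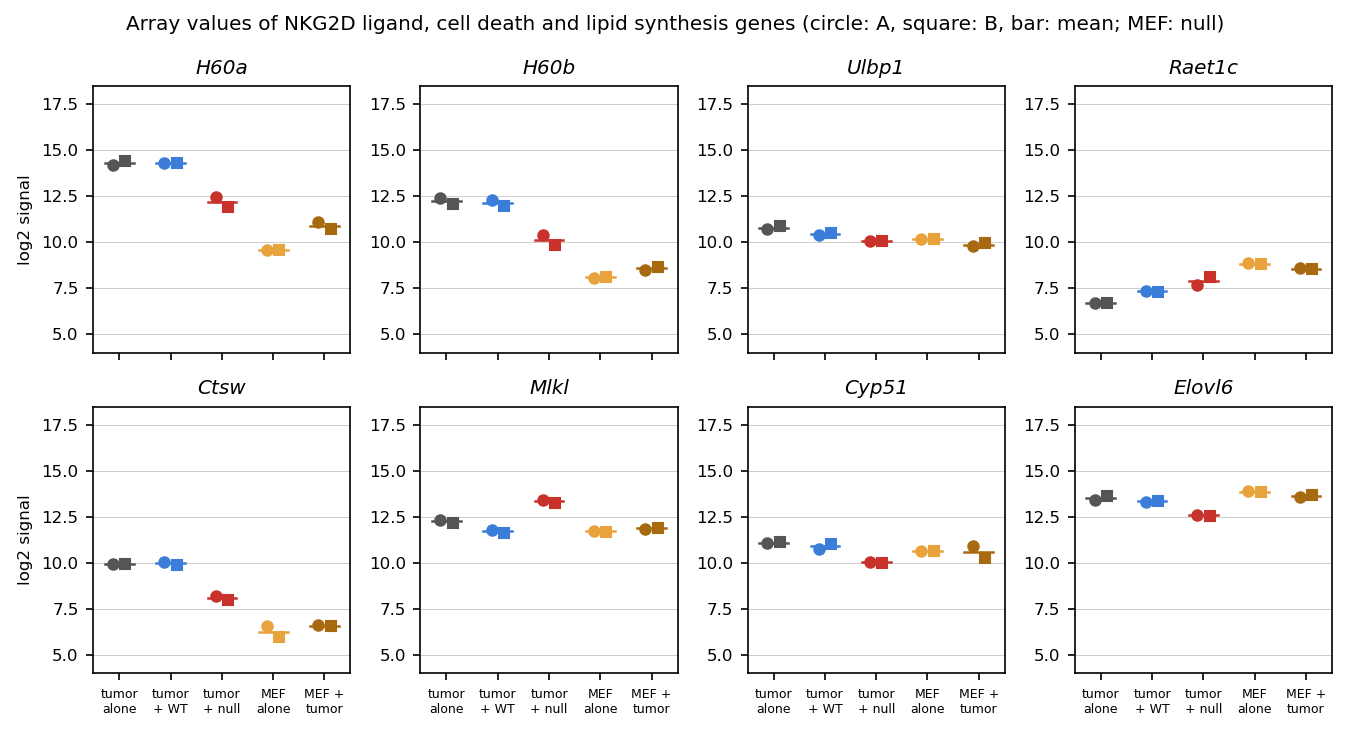
Log2 signal of 8 genes on single arrays (circle A, square B, bar the mean) in the same groups. H60a, H60b and Ctsw lie lower in tumor cells with null MEFs than alone or with WT MEFs, Raet1c lies higher than alone, and Mlkl lies higher than in every other group shown.

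Chemokine genes rose in a minority of cases, though in a larger share than the 10.1% of all genes tested. Of 17 CC chemokines 8 rose and 3 fell, and without tumor cells with null MEFs B or without tumor cells alone B, 7 rose and 0 fell. Of 13 CXC chemokines 5 rose and 1 fell, and the fall was lost without tumor cells with null MEFs A or either tumor-alone array. Cxcl10, which draws activated T cells through CXCR3, had 9.41 and 9.53 alone, 11.49 and 11.54 with WT MEFs and 14.31 and 15.19 with null MEFs (5.28 ± 0.23, 38.9-fold). Its relative Cxcl9 moved from 4.99 and 4.90 to 5.52 and 5.60, at least 1.53-fold, and did not pass after subtraction of the MEF share without rescaling (0.29, limma adjusted p = 0.0926). Ccl5 had 8.90 and 9.15 alone, 13.29 and 13.19 with WT MEFs and 15.57 and 16.48 with null MEFs. Cxcl16 went from 5.59 and 5.66 to 7.53 and 8.37, at least 5.0-fold higher. Cxcl14 (9.27 and 10.85) and Ccl27a (8.71 and 9.75) also passed, yet their null MEF means from co-culture were 13.36 and 11.92. After subtraction of the MEF share with rescaling Cxcl14 lay at the floor (-0.72) and Ccl27a was at -0.60. Ccl3 was 17.14 on tumor cells alone B and 5.10 on A, so its difference of -6.01 ± 2.66 (adjusted p = 0.144) rests on 1 array, and it was -12.03 without tumor cells alone A.

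Cytokine and NF-kB genes rose in 19 of 36 cases and 0 fell (median 0.58). With the 6 tumor cell arrays 12 rose and 0 fell, and some of the 19 calls were lost when 1 array was left out. Ptgs2, the inducible cyclooxygenase, went from 5.27 and 4.89 to 8.45 and 9.34, at least 14.1-fold. Lcn2, an iron-sequestering lipocalin, went from 9.67 and 9.58 to 12.44 and 13.15 (3.17 ± 0.24), above its null MEF means of 9.03 and 10.87. Il15, which sustains natural killer cells, went from 7.28 and 7.32 to 9.61 and 9.33 (2.17 ± 0.16), and null MEFs had means of only 5.25 and 6.43. Il18 (1.82 ± 0.13) and the oncostatin M receptor gene Osmr (4.19 ± 0.33) rose with null MEFs, and their differences between null and WT partners were -0.20 (adjusted p = 0.416) and 0.62 (adjusted p = 0.304).

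Complement and acute phase genes rose in 11 of 14 cases and 0 fell (median 1.46). After subtraction of the MEF share with rescaling 8 were higher and 0 lower, and the same numbers held with the 6 tumor cell arrays. Some calls were also lost when 1 array was left out. Of the 11, 4 stood above null MEFs both alone and from co-culture, and all 11 rose more on slide B. Over all 2612 genes that rose, these numbers were 958 and 1956. Cfb, the factor B of the alternative pathway, had 5.45 and 5.26 alone, 6.67 and 6.93 with WT MEFs and 11.15 and 11.74 with null MEFs, at least 68.1-fold higher. The null MEFs, with means of 7.38 and 8.70, were lower than both of these arrays. C3 went from 11.67 and 11.68 to 14.85 and 16.25 (3.87 ± 0.36), and C4b from 6.99 and 6.68 to 10.77 and 12.23 (4.67 ± 0.36). C1s rose by 1.49 ± 0.14.

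Of 30 cell death genes 10 rose and 1 fell, and the fall was lost without tumor cells with null MEFs B or tumor cells alone B. Xaf1, an interferon-induced antagonist of the inhibitor of apoptosis XIAP, went from 7.24 and 7.19 to 13.59 and 14.40, the largest difference of the list (6.78 ± 0.23). Ripk3, the kinase of the necrosome, had 4.85 and 5.19 alone, 9.92 and 9.60 with WT MEFs and 10.91 and 12.05 with null MEFs, at least 88.2-fold higher than alone. Null MEFs had means of 12.90 and 12.78. Its substrate Mlkl had 12.35 and 12.18 alone, 11.78 and 11.66 with WT MEFs and 13.42 and 13.28 with null MEFs (1.09 ± 0.11, adjusted p = 5.64e-05), and was lower in null MEFs (11.72 and 11.88). Mlkl thus fell with WT MEFs (-0.55, adjusted p = 0.00802) and rose with null MEFs. Casp4, the caspase that senses lipopolysaccharide, went from 5.90 and 6.44 to 11.56 and 12.74 (5.98 ± 0.32), Casp1 rose at least 2.39-fold and Pmaip1, the gene of NOXA, at least 6.81-fold.

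Some sterol synthesis genes fell. Of 33 genes of the cholesterol pathway 13 fell and 2 rose (median -0.40). The number lower was 4 without tumor cells with null MEFs B and 7 without tumor cells alone A, and with only the 4 arrays compared 1 was lower and 1 higher. Cyp51, the lanosterol demethylase, had 11.10 and 11.12 alone and 10.08 and 10.00 with null MEFs (-1.07 ± 0.18, adjusted p = 0.00226), with 10.77 and 11.05 beside WT MEFs. The demethylation enzyme Nsdhl (-0.70 ± 0.13) fell too. Hmgcs1 did not pass (-0.40 ± 0.15, limma adjusted p = 0.0864), but did after subtraction of the MEF share (-0.98, adjusted p = 0.00643; with rescaling -0.70, adjusted p = 0.0216). Of the 2 that rose, Mylip, which targets the LDL receptor for degradation, had 8.20 and 8.21 alone, 9.79 and 9.76 with WT MEFs and 9.31 and 9.60 with null MEFs. Of 20 fatty acid synthesis genes 6 fell and 2 rose, with 1 higher and 4 lower without tumor cells with null MEFs B or tumor cells alone B, and 1 higher and 5 lower without tumor cells alone A. Of those that fell, Elovl6, an elongase, had 13.41 and 13.64 alone and 12.63 and 12.55 with null MEFs (-0.93 ± 0.11, adjusted p = 0.000169). Null MEFs had more of both Elovl6 (13.88 and 13.65) and, from co-culture, Cyp51 (10.62) than the sorted tumor cells.

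The ER stress and ATF4 list split, with 5 of 33 higher and 7 lower, and 3 higher and 3 lower without tumor cells with null MEFs B. Without tumor cells with null MEFs A or tumor cells alone A 4 rose and 4 fell, and without tumor cells alone B 3 rose and 4 fell. Ddit3, the gene of CHOP, went from 11.33 and 11.05 to 12.03 and 12.60 (1.12 ± 0.20) and Chac1, which degrades glutathione, from 14.28 and 14.18 to 15.08 and 15.53 (1.07 ± 0.15). The ER cofactors Sdf2l1 (13.60 and 13.43 to 12.44 and 12.30) and Creld2 (16.25 and 16.17 to 15.27 and 15.33) fell by 1.14 and 0.91 on the log2 scale.

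Heat shock genes changed little. Of 30 cytosolic members 2 rose and 5 fell (median -0.19), which became 0 and 4 without tumor cells with null MEFs B, and 1 and 2 without either tumor-alone array. Hsf1 itself had 12.85 and 12.81 alone, 12.78 and 12.72 with WT MEFs and 12.44 and 12.29 with null MEFs, a difference of -0.46 ± 0.12 (adjusted p = 0.023, 0.0116 to 0.155 over the alternatives). It did not pass without tumor cells with null MEFs B (-0.39, adjusted p = 0.135) or without either tumor-alone array (-0.44, adjusted p = 0.088, and -0.48, adjusted p = 0.0682), nor after subtraction of the MEF share with rescaling (-0.27, adjusted p = 0.147). Ahsa1, which activates the HSP90 ATPase, fell from 16.39 and 16.47 to 15.49 and 15.75 (-0.81 ± 0.11, adjusted p = 0.000756). The chaperones Hspa8 (-0.18 ± 0.14) and Hsp90aa1 (-0.23 ± 0.13) did not pass.

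Of 36 DNA replication genes 8 fell and 0 rose (median -0.28), and of 34 mitosis genes 7 fell and 0 rose (median -0.24). With only the 4 arrays compared 0 of either list fell, and with the 6 tumor cell arrays 2 and 1 fell. After subtraction of the MEF share with rescaling 8 and 4 fell. Without tumor cells with null MEFs B, 3 and 0 fell. Without tumor cells alone A, 4 mitosis genes fell, and without tumor cells alone B, 1 did. Rrm1, the large subunit of ribonucleotide reductase, went from 15.41 and 15.62 to 14.97 and 14.83 (-0.61 ± 0.11, adjusted p = 0.00327). Ccne1, the gene of the G1/S cyclin E1, fell from 11.78 and 11.77 to 11.21 and 11.08 (-0.63 ± 0.09). Mki67, the proliferation marker Ki-67, had 15.43 and 15.35 alone and 15.20 and 15.47 with null MEFs (-0.06 ± 0.12, adjusted p = 0.786).

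Matrix and fibroblast genes showed another pattern from the interferon genes. Of 32 collagen and matrix genes 17 rose and 0 fell (median 0.78), and after subtraction of the MEF share with rescaling 11 were higher and 4 lower. The difference of each array from tumor cells alone was also set, on the linear scale, against that of co-cultured null MEFs, for members that rose and were at least 2-fold higher in those MEFs. For the 15 such matrix genes the median was 14.2% on array A and 42.2% on array B. Over all 1672 such genes that rose, of any kind, it was 20.4% and 40.3%. Members were kept because they rose on these same arrays, which favours high values. The same quantity was 118.4% and 168.1% for 39 antiviral effectors, and 177.8% and 271.0% for 17 genes of the guanylate-binding list. Col1a1 went from 8.41 and 8.65 to 14.31 and 15.79, with a null MEF mean of 16.81, and still passed after subtraction. Dcn (at least 9.58-fold higher) and Ogn (4.50 ± 0.35) lay at the floor after it (-0.85 and -3.96). The contractile genes were mixed, with Acta2, smooth muscle actin, at 14.10 and 13.61 alone and 15.41 and 16.69 with null MEFs, and Actg2, its gamma relative, at 15.22 and 14.86 alone and 12.83 and 13.10 with null MEFs. Krt19 went from 5.29 and 5.42 to 11.21 and 12.28, at least 83.8-fold higher, while WT-partner cells had 5.98 and 6.15 and null MEFs had means of 11.84 and 11.73. Krt18 had a mean of 7.65 in null MEFs alone and 14.87 in those sorted from co-culture. The MEF share and its subtraction take the levels of co-cultured MEFs as they stand. Whether RNA passed between the sorted cell types in either direction was not tested.

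**Figure D5:**
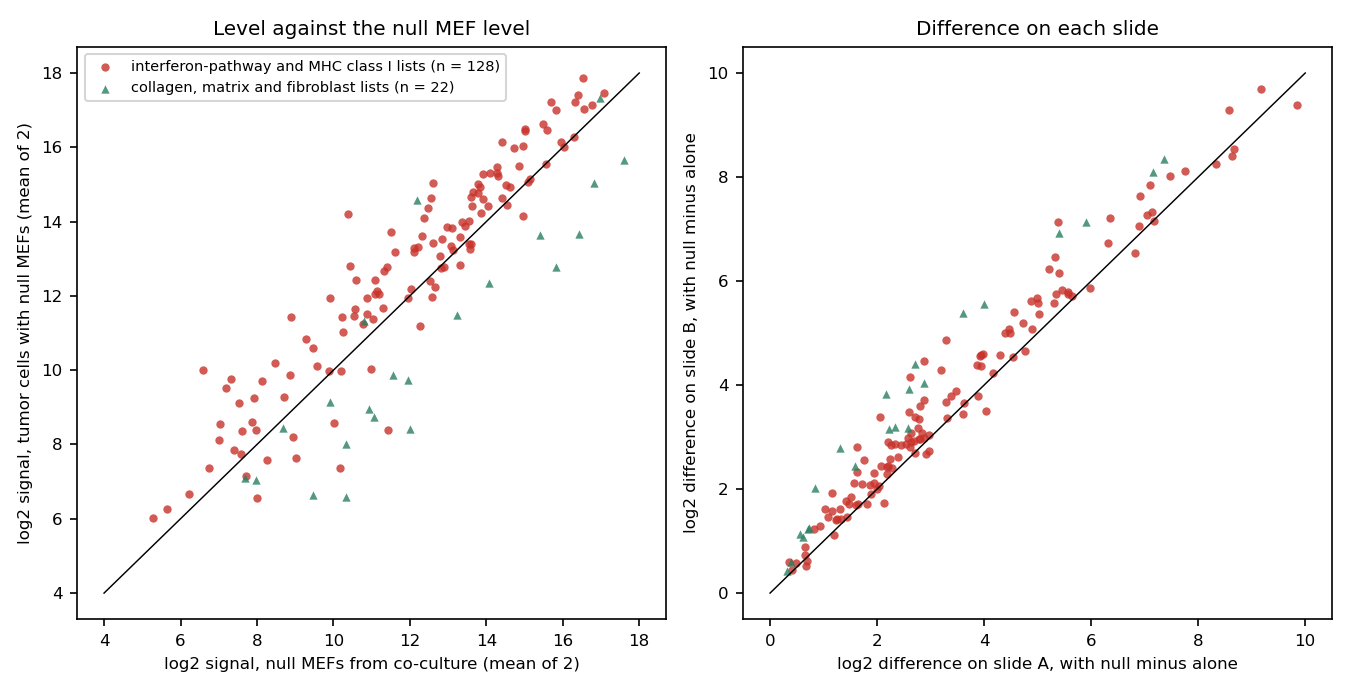
Left, mean log2 signal in tumor cells with null MEFs (y axis) against null MEFs from co-culture (x axis), and right, the difference on slide B against slide A (log2), for genes that rose, with lines of equality. Of 128 interferon-pathway and MHC class I genes (red circles) 100 lie above the left line and 107 above the right one, and of 22 collagen, matrix and fibroblast genes (green triangles) 3 and 22 do.

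The null and WT partners were compared directly, since both responses share the tumor cells alone. Between the partners, 1393 of all genes tested (5.38%) were higher with null MEFs and 1064 (4.11%) lower, 2457 in all. Without tumor cells with WT MEFs B, 1497 passed. Of the 159 interferon-pathway and MHC class I genes 119 were higher with null MEFs and 0 lower, with a median of 1.99 against -0.04 for all genes. The WT partner also raised many of them over tumor cells alone, with 75 higher and 0 lower and a median of 0.59, where 1823 of all genes were higher (7.04%) and 1235 lower (4.77%). The OAS list was higher with null MEFs in 11 of 12 cases (median 2.66) and the guanylate-binding list in 18 of 19 (median 3.26). Sterol genes were lower with null than with WT MEFs in 10 of 33 cases and higher in 0 (median -0.40), among them Cyp51 (-0.87, adjusted p = 0.012). Elovl6, of the fatty acid list, was lower too (-0.78, adjusted p = 0.00116). The null minus WT difference was -2.11 for H60a (adjusted p = 3.86e-05) and -1.98 for H60b (adjusted p = 8.83e-05). Fibroblast markers were lower with null MEFs in 6 of 22 cases and higher in 1.

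Some genes fell with both partners. Macc1, a regulator of MET transcription, had 10.86 and 10.74 alone, 8.73 and 8.94 with WT MEFs and 8.86 and 9.25 with null MEFs, and the partners differed by 0.22 (adjusted p = 0.531). Edn1, the endothelin 1 precursor gene, had 10.20 and 10.35 alone, 8.28 and 8.64 with WT MEFs and 8.62 and 8.50 with null MEFs. Ankrd1, a YAP target, had 13.93 and 13.92 alone, 11.85 and 12.10 with WT MEFs and 12.94 and 12.91 with null MEFs, so it was 0.95 higher with null than with WT MEFs (adjusted p = 0.000272). Pip, the prolactin-induced protein gene, had 10.97 and 11.18 alone, 10.65 and 10.76 with WT MEFs and 9.77 and 9.10 with null MEFs. It fell with null MEFs (-1.64 ± 0.19), while the difference with WT MEFs did not pass (-0.38, adjusted p = 0.234). Nlrp2, an inflammasome family member, rose with both, from 8.12 and 8.57 to 10.54 and 10.59 with WT MEFs and 10.85 and 11.41 with null MEFs, with means of 6.73 and 7.08 in null MEFs.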

How the data were processed

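The values tested are log2 values in a table deposited by the authors, with 36553 lines (140 of them controls). Their scaling between arrays is not given in the sources used here, and array medians lay between 6.34 and 6.40. Spot intensity comes from the authors' scanner output, for which the file headers give Feature Extraction 10.1.1.1 and the submitters' processing notes 9.1, on design 028005 with mm9 positions. The deposited flags well above background and outlier are of another kind, 0 or 1 per spot. Genes well above background on both arrays of at least 1 group were tested (25896 of 36413 names); flags of the 2 faulty scanner files were left out, so for those groups the flag rests on array B. With limma 3.58.1 (R 4.3.3) 7 group means were fitted to 14 arrays (7 residual degrees of freedom), with Benjamini-Hochberg adjustment over all genes tested and a threshold of 0.05. "At least" folds of genes not above background take the higher of the gene's value and the lowest well-above-background value of the array. Only 2 arrays per group limit the precision.

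The MEF share is the median over MEF-typical genes of the linear rise over tumor cells alone divided by that of co-cultured MEFs; subtracting it, then rescaling, was added after seeing the data. The 39 lists (900 members tested) and the members described were chosen with earlier results of these data known. Named genes are list members, Hsf1, or the highest and lowest by difference, bound, partner difference or excess over null MEFs; Tmem130 was chosen after its values were seen. Names are the array's; 23550 have a current symbol, 2750 another one. Alternatives covered the slide as a block, subsets of arrays, filter, scaling, scanner files and leaving out each array. The script was tested on simulated data. Some items are not reported here.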

Additional observations from a re-analysis of the deposited data

Results flagged for a closer look

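In 21 of the genes tested the tumor cells moved in opposite directions beside the 2 kinds of MEF, each against tumor cells alone and each passing limma's adjusted threshold, with the null and WT partners also differing. Of these, 16 were higher with null MEFs and 5 lower. In 20 of the 21 the call against alone was lost under at least 1 alternative, and in 16 when 1 array was left out. Without tumor cells with null MEFs B 7 kept it, without tumor cells alone A 8, without tumor cells alone B 11 and without tumor cells with null MEFs A 12. The genes described next are 3 of the 5 that kept it without any 1 array. Mlkl was 1.63 higher with null than with WT MEFs on the log2 scale. Bnip3, a mitophagy receptor gene induced by low oxygen, had 13.54 and 13.61 alone, 13.17 and 13.10 with WT MEFs and 14.19 and 14.15 with null MEFs, so it was 1.04 higher with null than with WT MEFs. Tmem130 had 6.02 and 6.34 alone, 5.74 and 5.50 with WT MEFs and 7.46 and 7.73 with null MEFs. For Mlkl, Bnip3 and Tmem130 both arrays with null MEFs lay above both alone, and both of these above both with WT MEFs. The way these genes were chosen favours this order, so it is no further support. On the sound scanner files, with 1 array on either side, Bnip3 differed from alone by 0.25 (limma adjusted p = 0.63) and Tmem130 by 2.19 (adjusted p = 0.0822), and neither passed.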

How the results depend on the processing

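Of the 5099 genes that passed with null MEFs against alone, and the 2457 that passed with null against WT MEFs, fewer passed when only the 6 tumor cell arrays were fitted (2244 and 920) or only the 12 sound scanner files (2433 and 1547). With only the 4 arrays compared 1026 passed, and 1556 of the 5099 changed at least 2-fold. Subtracting the MEF share without rescaling gave 11647 and 4845, with the median of all genes at -0.40 and 11.2% of calls higher; rescaling gave 4774 and 3523. Leaving out 1 array gave 2836 to 4550 and 1497 to 2447. Other settings stayed within 1.5 times, and the 392 list members called ranged from 286 to 503. The cause was not tested beyond the fewer arrays of these fits.

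Subtraction of the MEF share, without and with rescaling, turned Icosl (-1.41 in each), Cxcl14 (-0.72), Dcn (-0.85), Ogn (-3.96), Il28ra (-0.87), Lum (-0.76) and Ccl27a (-0.68 and -0.60) below 0. Except for Ccl27a, the values were the same in both because the subtracted signals lay at the floor. They give no measured size of a fall. On the scanner files Ifnb1, Hsf1, Bnip3, Tmem130, Cd47, Cyp51, Chac1, Ahsa1, Ccne1 and Edn1 did not pass, and Col3a1 did not pass after subtraction with rescaling (2.53, limma adjusted p = 0.445). Without rescaling Ifnar1 (-0.52), Hspa8 (-0.42) and Hsp90aa1 (-0.37) passed as lower.

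With the replicate block (letter, which is also the slide) 6562 and 3307 genes and 433 list members passed, and no call of a named gene changed. The labels do not say that letters pair samples; deviations of the same-letter arrays with null MEFs and alone correlated by 0.272, and 2 pairs cannot settle it. Array B carries the larger MEF share and alone sets the background flags of both groups.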
